A study of Homo sapiens with 8 samples.

Results

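The regions described here are the places where HA-tagged RUNX1 was found around 6 genes of its own protein family and its partners: the paralogs RUNX3 and RUNX2, the shared partner CBFB, and the ETO family corepressors RUNX1T1, CBFA2T2 and CBFA2T3. They were chosen by position alone, as every CUT&RUN peak from 50 kb before to 50 kb after each gene on the human build hg38, and peaks of different libraries that overlapped by at least 1 bp were counted as 1 region. There were 50 such regions, of 33478 in all. CUT&RUN sequences the short DNA fragments that a nuclease, tethered to an antibody in permeabilized cells, cuts loose around the protein of interest. The cells were HEL, a human erythroleukemia line with erythroid and megakaryocytic features, transduced and selected in 2 µg/ml puromycin, and all were incubated with the same anti-HA antibody. The 4 lines carried HA-tagged RUNX1-4A, HA-tagged RUNX1-4D, HA-tagged wild-type RUNX1 (WT) or an empty vector, with 2 biological replicates each. The series title concerns serine and threonine phosphorylation of RUNX1, and such names usually stand for alanine at those residues in 4A, which blocks phosphorylation, and for the acidic residue aspartate in 4D, a mimic of it. HEL cells keep their own RUNX1, which the antibody does not read, and nothing in the labels gives the amount of tagged protein in each line. Peaks near a paralog are therefore tagged RUNX1 at that gene, not binding by the paralog. Peak lists hold no expression, so the cell type was not checked against markers.

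RUNX proteins share the Runt domain, which binds DNA at a short core sequence and also binds CBFB, a subunit that does not touch DNA but strengthens the grip of its RUNX partner. RUNX1 is needed for blood stem cells and megakaryocytes, RUNX2 for bone, and RUNX3 for cytotoxic T cells and natural killer cells. Each RUNX gene can start from a distal or a proximal promoter. The ETO proteins do not bind DNA on their own. They are brought to it by transcription factors and recruit histone deacetylases. RUNX1T1 is the ETO protein joined to RUNX1 in a leukemia fusion, and CBFA2T3 (also called ETO2) is a corepressor of the TAL1 complex in erythroid and megakaryocytic cells.

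The distal promoters of RUNX3 and RUNX2 are shown first, because they hold the same pair of RUNX sites and were called very differently. The windows are those of RefSeq (GRCh38.p14, the same coordinates as hg38), 250 bases before and 50 after the start site, written 5′ to 3′ in the direction of transcription. Capitals mark the RUNX core, TGTGGT or TGCGGT, on either strand.
RUNX3 distal, chr1:24964961-24965260, minus strand: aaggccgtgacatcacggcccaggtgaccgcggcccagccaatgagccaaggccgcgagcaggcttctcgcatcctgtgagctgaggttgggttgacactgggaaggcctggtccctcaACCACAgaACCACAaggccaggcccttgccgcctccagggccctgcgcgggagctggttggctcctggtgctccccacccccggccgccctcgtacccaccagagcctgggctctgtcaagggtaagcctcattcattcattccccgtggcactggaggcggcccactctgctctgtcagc
RUNX2 distal, chr6:45328080-45328379, plus strand: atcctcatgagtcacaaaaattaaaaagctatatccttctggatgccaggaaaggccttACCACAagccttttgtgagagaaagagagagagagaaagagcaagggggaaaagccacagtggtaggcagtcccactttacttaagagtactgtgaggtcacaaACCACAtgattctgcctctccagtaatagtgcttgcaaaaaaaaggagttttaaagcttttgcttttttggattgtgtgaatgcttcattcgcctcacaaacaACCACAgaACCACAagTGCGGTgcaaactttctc
RUNX3 proximal, chr1:24930227-24930526, minus strand: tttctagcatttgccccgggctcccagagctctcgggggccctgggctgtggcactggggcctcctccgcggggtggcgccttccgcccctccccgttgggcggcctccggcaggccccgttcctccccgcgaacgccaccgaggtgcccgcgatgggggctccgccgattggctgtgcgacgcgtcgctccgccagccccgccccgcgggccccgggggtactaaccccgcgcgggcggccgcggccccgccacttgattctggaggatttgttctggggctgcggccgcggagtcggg
RUNX2 proximal, chr6:45422025-45422324, plus strand: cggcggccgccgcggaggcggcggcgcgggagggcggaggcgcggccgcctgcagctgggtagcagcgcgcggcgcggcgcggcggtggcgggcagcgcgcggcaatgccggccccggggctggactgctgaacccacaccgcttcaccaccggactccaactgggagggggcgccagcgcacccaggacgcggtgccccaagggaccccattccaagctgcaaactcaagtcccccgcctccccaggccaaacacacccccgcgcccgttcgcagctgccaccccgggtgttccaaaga

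The RUNX3 distal window held 2 core matches and the RUNX2 distal window 5, while neither proximal window held any. Of 34943 RefSeq promoter windows of this size, 19.6% held at least 1 core match, 2.33% at least 2, and 0.0114% (4 windows) 5 or more. The longest run common to both distal windows, found after the sequences had been examined, was 18 bases with 2 cores in the same direction and 2 bases between them.
Shared run: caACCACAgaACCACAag
The run lay at chr1:24965126-24965143 in RUNX3, from 133 to 116 bases before the start site, and at chr6:45328344-45328361 in RUNX2, from 14 to 31 bases after it. No other window in the table held it on either strand, and 6 windows (0.0172%) held any pair of cores with this spacing and orientation. A peak covered the run in all 6 lists at RUNX3 and in 0 lists at RUNX2. A match is a description of the sequence and does not show a bound site.

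Across the 6 genes the lines differed far less than the replicates. Of the 50 regions, 4A called 10 (replicate 1) and 35 (replicate 2), 4D called 10 and 37, and WT called 9 and 37. The means were 22.5 ± 17.7 for 4A, 23.5 ± 19.1 for 4D and 23 ± 19.8 for WT (SD, n = 2). The split went with the length of the lists, as the replicate 1 lists held 5358 to 6764 peaks and the replicate 2 lists 21122 to 25911. Over the whole union 18.3% and 71.0% of regions were called in the 4A replicates, 15.6% and 61.5% in the 4D replicates, and 19.6% and 76.3% in the WT replicates. At the 6 genes these shares were 20% and 70.0% (4A), 20% and 74.0% (4D), and 18.0% and 74.0% (WT). Read depth is unknown, because a peak list holds no read totals, so a region missing from a list was not called there and is not shown to be unbound. With 2 libraries against 2, an exact two-sided permutation test cannot go below p = 0.333, and single regions were not tested between lines.

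**Figure D1:**
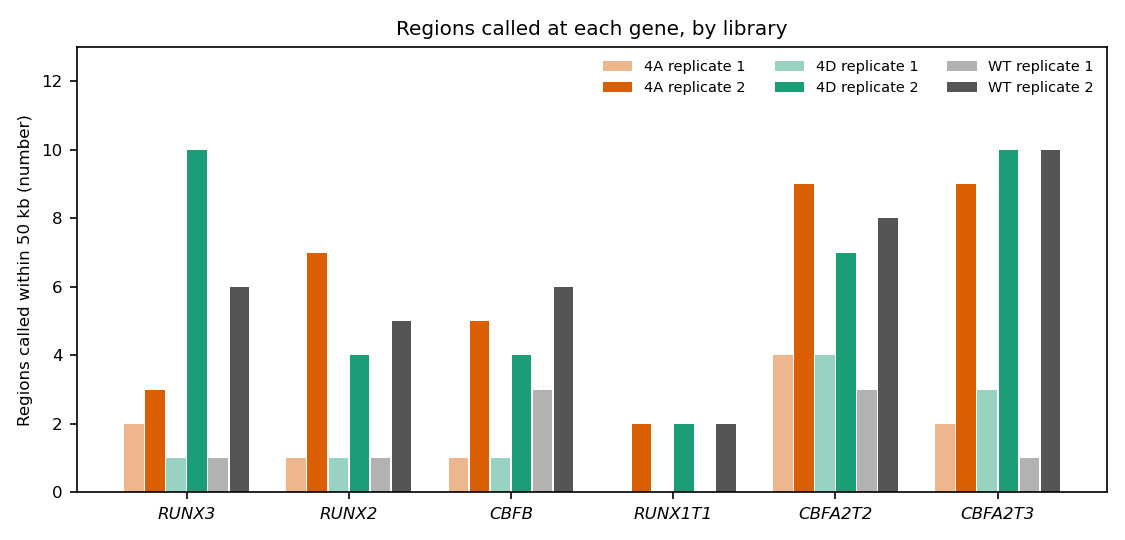
Number of regions called from 50 kb before to 50 kb after each gene (vertical axis) in each library, with pale bars for replicate 1 and full bars for replicate 2 of 4A, 4D and WT. RUNX3 has 3, 10 and 6 regions in the replicate 2 lists of 4A, 4D and WT, and RUNX1T1 has 2 in each and 0 in the replicate 1 lists.

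Regions called in all 6 libraries numbered 6 of the 50 (12.0%), against 9.84% of the union, which is close to the background. They lay in the windows of RUNX3 (1), CBFB (1), CBFA2T2 (3) and CBFA2T3 (1), and none lay in those of RUNX2 or RUNX1T1. Thus 4 of the 6 genes had such a region within 50 kb, where 30.5% of all 20033 protein-coding genes had one. The windows of the 6 genes were 166 kb (RUNX3) to 323 kb (RUNX2) wide, and window width was not adjusted for. Every one of the 6 genes had a region in some list, as did 80.9% of protein-coding genes. Regions in all 3 replicate 2 lists made up 25 of 50 (45.6% of the union). At least 1 replicate 1 list called 15 of 50 (27.4% of the union), and 15 of 50 were in 1 list only (34.5% of the union). RUNX1 itself, in a window of 362 kb, had 29 regions with 6 in all libraries, or 80.2 regions per Mb. The 6 genes had between 12.1 (RUNX1T1) and 66.4 (RUNX3) per Mb, and the median over protein-coding genes was 18.4 per Mb.

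**Figure D2:**
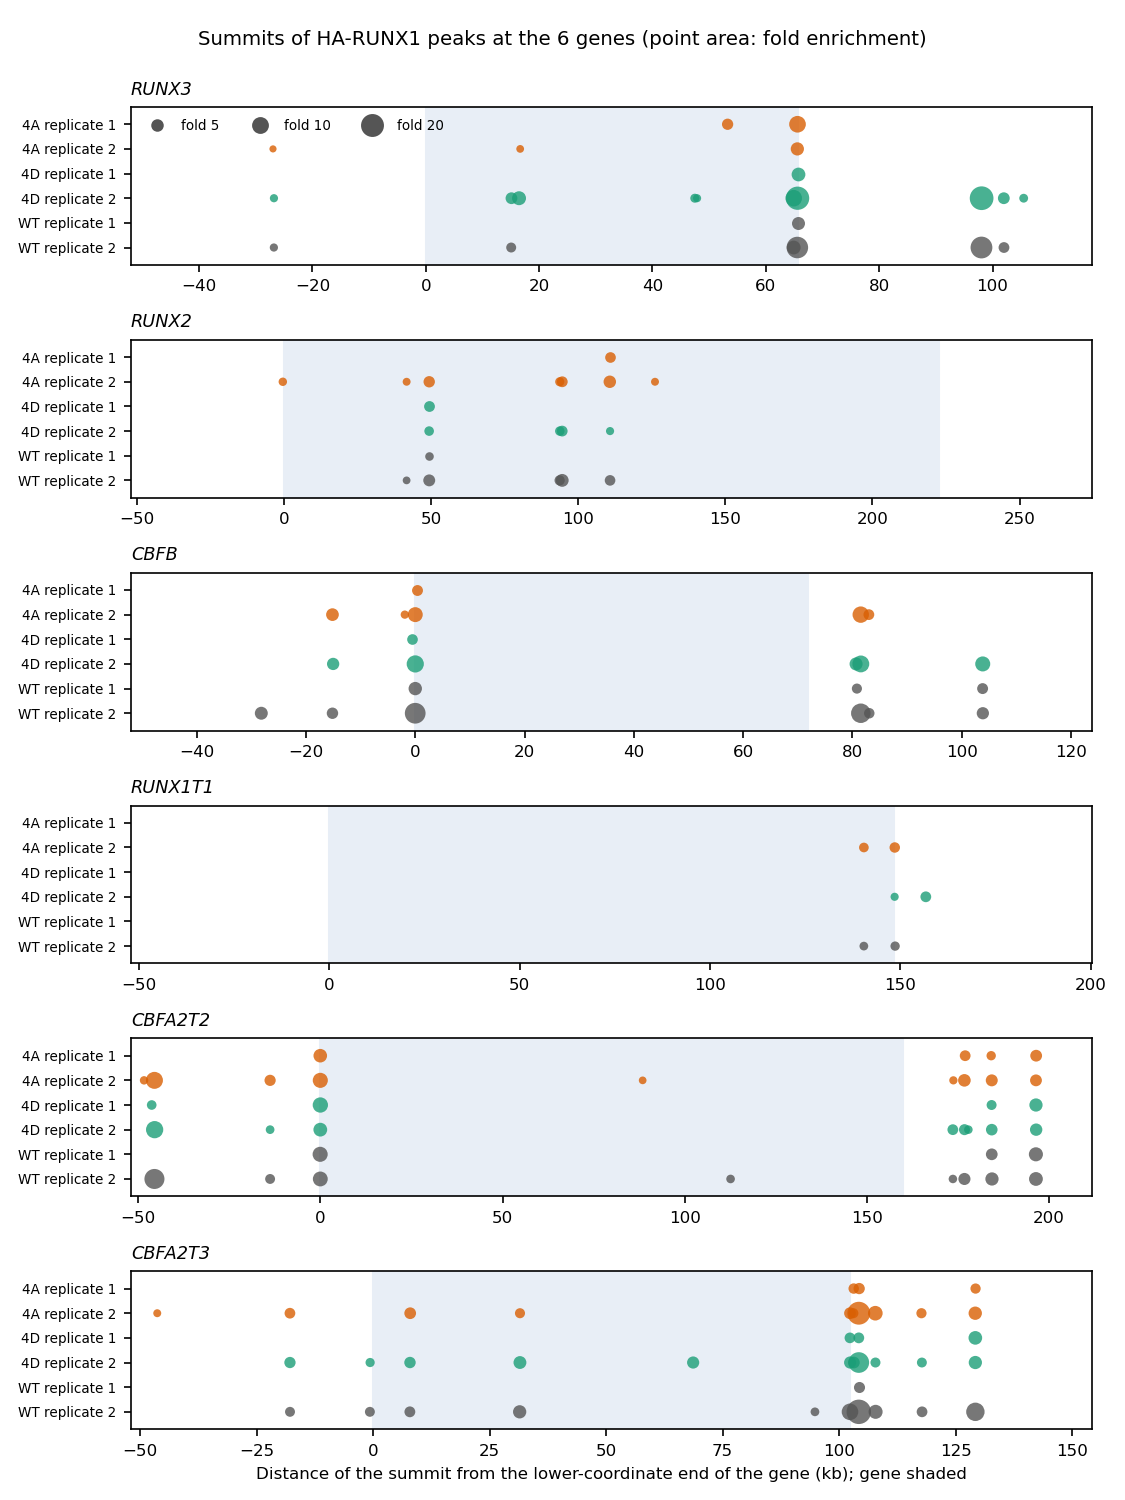
Peak summits in each library (rows) by distance in kb from the lower-coordinate end of each gene (horizontal axis), with the gene shaded and the point area proportional to the fold enrichment over background. Points line up at one end of RUNX3, CBFB, CBFA2T2 and CBFA2T3 in all 6 rows, and the strong points beyond the upper end of RUNX3 appear in 4D and WT replicate 2 only.

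RUNX3 (chr1:24899511-24965138, minus strand) was bound at its distal start site in every library, and elsewhere mainly in the 4D and WT replicate 2 lists. The region at the distal start (chr1:24964831-24965665) had its median summit 0.025 kb inside the gene's upper end. Its fold enrichment over background, a linear ratio from the authors' lists, was 12.8 and 8.06 in the 4A replicates, 8.71 and 24.9 in the 4D replicates, and 7.79 and 21.4 in the WT replicates. That background came from the empty vector line, and the labels do not say whether its libraries were pooled or matched by replicate. The percentile rank of the region's −log10 q within each list was 87.1 and 71.3 in 4A, 73.1 and 97.6 in 4D, and 57.4 and 94.8 in WT. So the peak stood in the top 10 percent of the 4D and WT replicate 2 lists but not of the 4A replicate 2 list, and in replicate 1 the 4A list gave it the highest rank. The lines are not ordered alike in the 2 replicates.

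The summits at this start lay within the printed distal window in all 6 lists. They were 95 and 66 bases before the start site in the 4A replicates, 141 and 112 in the 4D replicates, and 141 and 66 in the WT replicates. Their distance to the centre of the nearest core match was 25.5 and 54.5 bases in 4A, 12.5 and 8.5 in 4D, and 12.5 and 54.5 in WT. The summits spanned 75 bp in all, and the median span over the 3295 regions called in all libraries was 107 bp. No list had a peak over the proximal RUNX3 window.

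**Figure D3:**
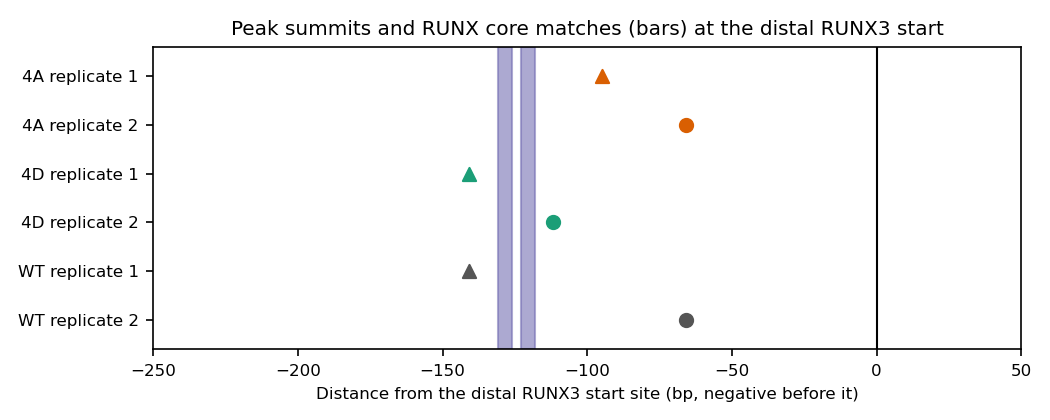
Summits of the peak at the distal RUNX3 start site in each library (triangles replicate 1, circles replicate 2) by distance from the start site in bp (horizontal axis, vertical line at 0), with the 2 RUNX core matches as bars. All 6 summits lie between 141 and 66 bases before the start site, around or next to the pair of cores.

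Beyond the start site, RUNX3 differed between the replicate 2 lists more than any other of the 6 genes. Its window held 10 regions in 4D replicate 2 and 3 in 4A replicate 2, a difference of 7. WT replicate 2 held 6. Of 20033 protein-coding genes, 7 (0.0349%) had a difference of 7 or more in this direction, although the 4D replicate 2 list was the shorter one. These 7 include RUNX3. Only a window with at least 7 regions can reach such a difference, while the median window held 3 regions and that of RUNX3 11. The share among genes with as many regions was not computed. Between 4A and WT replicate 2 the counts were 3 and 6, and in 4.42% of genes WT exceeded 4A by as many or more. Replicate 1 did not show the same order, with 1 region in 4D, 2 in 4A and 1 in WT. The neighbourhood did not share the difference either: from 50 kb to 1 Mb around RUNX3 the replicate 2 lists called 41 (4D), 45 (4A) and 47 (WT) regions. With all lists at one length the 4D minus 4A difference was 3, and it was 4 within 10 kb of the gene. These counts were looked up after the lists had been seen, and each rests on single libraries.

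**Figure D4:**
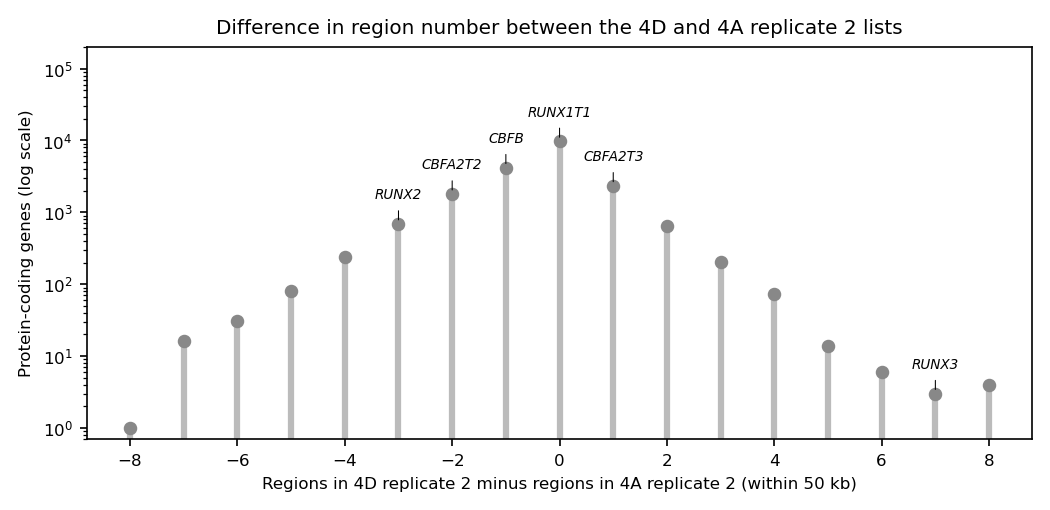
Number of protein-coding genes (vertical log axis) at each difference in region number, 4D replicate 2 minus 4A replicate 2, within 50 kb (horizontal axis), with the 6 genes marked. RUNX3 stands at 7, where 3 genes lie, and the other 5 genes stand between -3 and 1.

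The strongest of the regions missing from 4A lay 32.4 kb beyond the upper end of RUNX3, upstream of the distal start (chr1:24997214-24998094). Its fold enrichment was 25.9 in 4D replicate 2 and 21.9 in WT replicate 2, with ranks of 98.1 and 95.3, above those of the start site itself in these lists. It was called in neither 4A list and in no replicate 1 list. Of 891 regions in the top 5 percent of both the 4D and WT replicate 2 lists, 21 (2.36%) were in no replicate 1 list, and 1 (0.112%) was in neither 4A list, which was this one. The share of 5 percent was chosen after the ranks had been seen. With lists of equal length, where ranks were taken anew within the shortened lists, the count was 0. Shortening lists moves the 5 percent cut and cannot add a 4A call, so this 0 does not mean that 4A called the region. With the top 10 percent the count was again 1. A second upstream region, 36.4 kb from the gene (chr1:25000919-25001765), followed the same pattern with fold enrichments of 6.41 in 4D and 5.37 in WT replicate 2. Inside the gene, 0.701 kb from the upper end, the region chr1:24964061-24964581 was likewise called in 4D replicate 2 (fold 12.6) and WT replicate 2 (fold 8.81) only. The remaining regions of RUNX3 had fold enrichments between 2.35 and 8.96.

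RUNX2 (chr6:45328330-45551082, plus strand) had 7 regions, none of them in all libraries. The 4A replicates called 1 and 7 of them, the 4D replicates 1 and 4, and the WT replicates 1 and 5. The highest ranked region overall (chr6:45377519-45378484) lay inside RUNX2, 49.3 kb from its lower end, but also inside SUPT3H, 0.258 kb from its end. SUPT3H encodes a subunit of the SAGA coactivator complex and overlaps RUNX2 on the other strand. The region was called in 5 lists, with fold enrichments of 5.97 in 4A replicate 2, 5.39 and 4.24 in the 4D replicates, and 3.41 and 6.55 in the WT replicates. Summits lay between 22 bases before and 35 bases after a SUPT3H start site. The median summit was 49346 bases after the distal RUNX2 start and 44599 bases before the proximal one. By position the region thus belongs to the SUPT3H start, and an effect on either gene was not tested.

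At the 2 start sites of RUNX2 itself, signal was weak. The distal window, with its 5 core matches, was touched by a peak of 1 list, 4A replicate 2, whose summit lay 408 bases before the start with a fold enrichment of 3.28 and a rank of 3.53. The proximal window was covered in the replicate 2 lists of all lines, by a region whose fold enrichment was 3.88 in 4A, 4.13 in 4D and 4.82 in WT (chr6:45421909-45422493). A stronger region followed about 609 bases after the proximal start (chr6:45422618-45423087), with 5.38 in 4A, 5.35 in 4D and 7.61 in WT replicate 2. Further inside, 16821 bases after that start, a region was called in both 4A replicates (5.24 and 7.15), 4D replicate 2 (3.06) and WT replicate 2 (5.20). None of these regions ranked as high in any list as the 65.3 of the SUPT3H region in 4A replicate 2.

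CBFB (chr16:67029149-67101058) had a region at its lower end that was called in every library. The region there (chr16:67028438-67030073) was 1636 bp wide, and its median summit was 0.009 kb inside the gene. Fold enrichments were 5.48 and 10.3 in the 4A replicates, 5.23 and 13.6 in the 4D replicates, and 8.24 and 19.8 in the WT replicates. WT was highest in both replicates. So was the median fold enrichment of the whole WT list, 7.54 and 6.19 against 6.92 and 5.08 (4A) and 6.94 and 5.68 (4D). The WT replicate 1 value lay below both mutant values of replicate 2, so WT overlapped the mutants across replicate numbers only. The rank of the CBFB region was 14.5 and 83.1 in 4A, 16.1 and 88.3 in 4D, and 44.2 and 92.8 in WT. The summits of the replicate 1 mutant lists stood apart from the rest, which widened the span of summits to 847 bp. The calls of the region thus did not share a single summit position. In WT replicate 1 and the replicate 2 lists of 4A, 4D and WT, the summit lay between 67029147 and 67029158. The gene body held no other region.

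The other 6 regions in the CBFB window lay outside the gene, 5 of them nearer to the ends of the neighbours CES4A, PHAF1 or B3GNT9. The strongest lay in PHAF1, 0.733 kb from its end by its median summit (chr16:67109653-67110807), with fold enrichments of 12.4 in 4A replicate 2, 13.1 in 4D replicate 2, and 4.72 and 17.5 in the WT replicates. In replicate 2 the summits of its highest peaks lay 728 (4A), 743 (4D) and 739 (WT) bases after the PHAF1 start. The summit of WT replicate 1 lay 25 bases after this start, 80.817 kb from the lower end of CBFB. In 4D replicate 2 the region also held a lower peak on that side, at 80.667 kb (fold 7.81, rank 60.9), beside its highest at 81.535 kb. The merged region thus joined peaks at more than 1 position. A region deeper in PHAF1 (chr16:67132637-67133339) was called in both WT libraries and in neither 4A library, with fold enrichments of 10.4 in 4D replicate 2, and 5.50 and 6.92 in the WT replicates. No other region of the 50 had both replicates of one line and no replicate of another, and over the union 0.269% were called in both WT and neither 4A library. It stood 31.9 kb from CBFB, and its WT replicate 1 rank was 9.51. In the whole CBFB window the 4A replicates called 1 and 5 regions, the 4D replicates 1 and 4, and the WT replicates 3 and 6.

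For the other pairs of lines the count was 0 of 50. Over the union such regions made up 0.206% (4A, not WT), 0.114% (4D, not WT), 0.472% (WT, not 4D), 0.314% (4D, not 4A) and 0.669% (4A, not 4D). A count of 0 among 50 regions allows a share of up to 6%, well above these, so a difference of this kind was not detectable with so few regions. Between single lists of the same replicate number, 4A replicate 1 called 4 regions that WT replicate 1 did not (5.33% of the union), and WT called 3 that 4A did not (6.67%). 4D replicate 1 called 3 that WT did not (3.31%) and WT 2 that 4D did not (7.38%), and 4D called 3 that 4A did not (4.73%) and 4A 3 that 4D did not (7.45%). In replicate 2, 4A called 7 that WT did not (15.2%) and WT 9 that 4A did not (20.5%), 4 of them at RUNX3. There 4D called 6 that WT did not (9.35%), again 4 at RUNX3, and WT 6 that 4D did not (24.2%). Finally 4D called 11 that 4A did not (13.7%), 7 of them at RUNX3, and 4A called 9 that 4D did not (23.2%), with 3 at RUNX2 and 0 at RUNX3. In replicate 2 the 4D minus 4A difference in region number was thus 7 at RUNX3 and -3 at RUNX2, while in replicate 1 it was -1 at RUNX3 and 0 at RUNX2.

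RUNX1T1 (chr8:91954967-92103385) had the fewest regions, 3, all of them in replicate 2 lists. Each replicate 2 list called 2 of them and each replicate 1 list 0. The region over its upper end (chr8:92102734-92103720) was the one called in all lines, with fold enrichments of 5.05 in 4A, 3.07 in 4D and 4.01 in WT, and ranks of 55.6, 9.92 and 23.5. A second region 8.01 kb inside the gene was called in 4A (fold 4.31) and WT (3.52), and the third, 8.26 kb outside it, in 4D (5.35). With no replicate 1 call, each of these values rests on 1 library of a line.

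CBFA2T2 (chr20:33490096-33650030, plus strand), which encodes the ETO protein MTGR1, had the region whose fold enrichment varied least among the 6 called in all libraries. It lay at the lower end of the gene (chr20:33489841-33490556), with a median summit 0.036 kb outside. Fold enrichments were 8.49 and 10.5 in the 4A replicates, 10.8 and 8.73 in the 4D replicates, and 10.5 and 10.2 in the WT replicates. The lines overlapped, and the values differed by less than 1.5 times between the highest and the lowest list. The ranks were 67.4 and 94.3 (4A), 84.7 and 86.8 (4D), and 84.4 and 87.9 (WT), and the 6 summits spanned 54 bp. The RefSeq window of CBFA2T2, at an inner start site (chr20:33562092-33562391), was covered by no peak and held no RUNX core, and no window was listed for the lower end.

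Both other regions called in all libraries in the CBFA2T2 window belong by position to neighbours. One lay 0.951 kb from an end of NECAB3 (chr20:33673384-33674867), with fold enrichments of 4.04 and 6.60 in 4A, 4.59 and 6.20 in 4D, and 6.33 and 8.07 in WT. Its summits lay between 28 bases before and 188 bases after a NECAB3 start site. They were 15.5 to 141.5 bases from the centre of the RUNX core match in that window. The other lay 0.151 kb from E2F1, the transcription factor that drives genes of DNA replication (chr20:33685992-33686714), with 6.41 and 6.45 in 4A, 8.07 and 7.06 in 4D, and 9.14 and 8.79 in WT. Its summits lay in the E2F1 promoter window in all 6 lists, and that window held no RUNX core. At E2F1 both WT fold enrichments exceeded all 4 values of the mutants, but the ranks did not separate in this way. They were 41.1 and 80.0 in 4A, 62.8 and 72.3 in 4D, and 65.5 and 81.4 in WT. By rank WT was highest within each replicate number, and WT replicate 1 lay below both mutants of replicate 2. The median fold enrichment of the whole list was also highest in WT within each replicate number, as given for CBFB. Fold enrichments of lists that were scaled separately do not measure a change, and the difference at E2F1 was not tested.

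CBFA2T3 (chr16:88874858-88977207, minus strand) had the most regions, 12, and the highest rank of any in the 6 windows. The 4A replicates called 2 and 9, the 4D replicates 3 and 10, and the WT replicates 1 and 10. The region called in all libraries (chr16:88977653-88979498) lay 1.86 kb beyond its upper end, which is the side of the gene's starts. Fold enrichments were 5.87 and 24.1 in the 4A replicates, 5.39 and 19.7 in the 4D replicates, and 5.65 and 27.5 in the WT replicates. The ranks were 38.2 and 98.6 in 4A, 30.1 and 96.1 in 4D, and 50.6 and 98.0 in WT, so the peak was near the top of each replicate 2 list and in the middle or lower part of each replicate 1 list. The summits spanned 82 bp.

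A second region sat on the upper end itself (chr16:88976796-88977513), with fold enrichments of 6.37 in 4A replicate 2, 5.26 and 6.86 in the 4D replicates, and 12.7 in WT replicate 2. Farther out, 26.9 kb beyond the end, the region chr16:89003847-89004705 was called in 5 lists. It had 4.85 and 8.21 in the 4A replicates, 8.58 and 8.08 in the 4D replicates and 15.6 in WT replicate 2, and was not called in WT replicate 1. It was thus found in both libraries of each mutant and in 1 of WT. Inside the gene 4 other regions were found, with fold enrichments between 3.52 and 8.12, none of them in a replicate 1 list. The RefSeq window of an inner CBFA2T3 start (chr16:88941301-88941600) was covered by no peak.

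**Figure D5:**
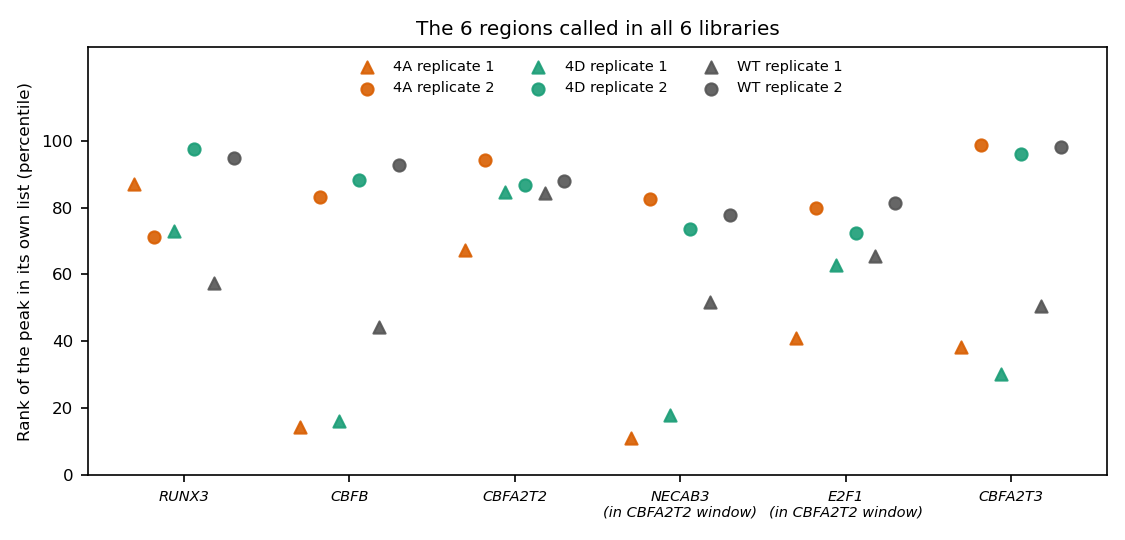
Percentile rank of the −log10 q of the peak within its own list (vertical axis, 100 is the highest) for the 6 regions called in all libraries, with triangles for replicate 1 and circles for replicate 2 of 4A, 4D and WT. CBFA2T2 ranks between 67.4 and 94.3 in all lists, while CBFA2T3 ranks at 96.1 or above in replicate 2 and at 50.6 or below in replicate 1.

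By position, 31 of the 50 regions were nearer to an end of the listed gene than to that of any other protein-coding gene, 22 had their summit inside the listed gene, and 8 lay within 1 kb of one of its ends. Genes on other chromosomes were ordered by how similar their window counts were over the 6 lists, by the sum of absolute differences, with ties broken by gene length. The leading genes were TXNL4A and WNT7B for RUNX3 (a sum of 5 each), MRM1 and S100A8 for RUNX2 (0), DCAF17 and NAIF1 for CBFB (1), LGR5 and SYCP1 for RUNX1T1 (0), NKD1 (1) and CAPZB (2) for CBFA2T2, and FGFR3 (1) and ENDOD1 (2) for CBFA2T3. The smallest sum was shared by 15 genes for RUNX3, 6 for CBFB and 177 for RUNX1T1, so the names given there are picks among ties. Even the closest gene to RUNX3 differed by 5 calls.

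A list of 30 genes for corepressors and partners of RUNX and ETO proteins was examined in the same way. Within 50 kb, 16 of them (53.3%) had a region called in all 6 libraries, against 30.5% of protein-coding genes. By line, 18 had a region called in both 4A libraries (42.7% of all genes), 17 in both 4D libraries (39.2%) and 19 in both WT libraries (46.9%). Windows of long genes are wider, and this was not adjusted for. The count is of windows and does not assign a region to a gene. The region of highest mean rank was nearest to another gene's end at TLE2 (ZNF77), TLE5 (TLE2), HDAC1 (FAM229A), SIN3B (F2RL3), GPS2 (EIF5A) and PRMT1 (SCAF1). As TLE2 is itself in the list, the same region can count for both TLE5 and TLE2. By mean rank, SIN3B, ZBTB16, SMAD3 and SIN3A were among the leading genes. The SIN3B region (chr19:16888503-16890879) lay 8.53 kb from that gene and 0.119 kb from F2RL3, a platelet thrombin receptor, and reached fold enrichments of 26.5 and 30.9 in 4A, 18.1 and 32.5 in 4D, and 29.8 and 53.2 in WT. The SIN3A region, in the gene of a scaffold for histone deacetylases (chr15:75450724-75452250), had 21.9 and 12.6 in 4A, 23.6 and 12.2 in 4D, and 31.0 and 14.1 in WT. HDAC2, a histone deacetylase, had no region called in all libraries, and TLE1, TLE4, PRMT6 and YAP1 had no region in any list. At SIN3B and SIN3A WT was highest within each replicate number, as were the medians of the whole WT lists. WT overlapped the mutants there only across replicate numbers, and the difference was not tested.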

How the data were processed

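CUT&RUN with an anti-HA antibody was run on 8 libraries of HEL cells, and the 6 of RUNX1-4A, RUNX1-4D and WT were deposited as 1 peak list each, so replicates were not pooled. The 2 empty vector libraries served as background for peak calling, per the series design, and were not analysed here on their own. The labels do not say whether they were pooled or paired by replicate for this, which bears on every fold enrichment and every call. The submitters' processing notes name MACS2 2.2.7.1, Picard 2.25.6, cutadapt 3.4, deepTools 3.5.1 and Bowtie2 2.4.2, and the build hg38. Read filters: not given in the sources used here. In the deposited lists each peak has a score, a fold enrichment over background (a linear ratio), and a −log10 p and −log10 q, and these values of the authors were used only to describe or rank peaks within a list. The lowest −log10 q was 1.30 to 1.41.

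After leaving out 3 to 19 peaks per list on other sequences than chromosomes 1 to 22, X and Y, peaks were merged with Python 3.11.15 and pandas 2.3.3, by a step tested on simulated lists. The simulated sites lay far apart, so the joining of nearby peaks was not tested. A region counts for a gene if it shares at least 1 bp with its window. Where a list had more than 1 peak in a region, the one of highest −log10 q was used. Genes came from the RefSeq table (GRCh38.p14), and start sites, strand and promoter sequence from RefSeq's promoter windows, which list none for CBFB and RUNX1T1. Regions named in full are those called in all 6 lists, in 2 lists of a line and none of another, or highest in rank at a gene. Others given in full were chosen after their values were seen. The genes, lists and motifs were chosen with earlier results of these data known. The labels say the replicates are biological and not how they were separated. Results at some genes are not reported here.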

Additional observations from a re-analysis of the deposited data

How the results depend on the processing

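The counts over the 6 genes were recomputed under other rules for merging, thresholds, list lengths, windows and libraries. In 81 of 120 recomputations they were equal or within 1.5 times. This share does not measure stability, as part of it was fixed by the rules. A count between a pair of lines uses no call of the remaining line. Both 4A and neither 4D library, for example, stayed at 0 without WT replicate 1. Leaving out a library of the pair only loosens the rule. Counts of 0 that stayed at 0 were scored as equal. The 6 regions called in all libraries became 3 when each list was limited to its 5358 highest peaks (one length), 3 with a minimum −log10 q of 5 and 10 within 100 kb. The 4 genes with such a region became 2 with a −log10 q of at least 5. Regions in both 4A and neither WT library (0) became 1 with summit windows and 1 at one length, and regions in both 4A and neither 4D library (0) became 1 at one length. The 1 region in both WT and neither 4A library became 0 with a −log10 q of at least 5, 0 at equal lengths within each replicate number, 0 at one length, 0 within 10 kb and 2 within 100 kb. The cause was not tested.

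Leaving out 1 library or all of 1 replicate number gave 6 to 25 regions called in all remaining libraries, the highest without replicate 1, and 4 to 6 genes with one. It gave 0 to 7 regions (4A, not WT), 1 to 9 (WT, not 4A), 0 to 6 (4D, not WT), 0 to 6 (WT, not 4D), 0 to 11 (4D, not 4A) and 0 to 9 (4A, not 4D). With replicate 1 left out, each line rests on its replicate 2 list alone. No paired analysis was possible because these counts of calls come from no test, so there is no fit to block. The lines share replicate numbers, and differences within a number are given as values, such as -1 and 7 for RUNX3 (4D minus 4A, replicates 1 and 2).

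Under alternatives chosen after seeing the data, the RUNX3 difference of 7 between 4D and 4A replicate 2 ranged from 3 to 9, and that of 3 between WT and 4A from 1 to 5. The count of regions high in 4D and WT replicate 2 and in neither 4A list, 1 as given, was 3 with summit windows. It was 0 with either equal list length, where ranks were taken anew, and 0 for the top 2 percent. Depth is unknown, and it limits every statement on a region that was not called.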
